A study of Mus musculus with 8 samples.

Results

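Heat shock proteins and chaperonins are the genes described here. The members were all rows of the count tables whose symbols name a heat shock protein of the Hspa, Hspb, Hspd, Hspe, Hsph or Hsp90 classes, a J-domain protein of the Dnaja, Dnajb or Dnajc classes, or a subunit of the cytosolic chaperonin CCT (Cct2 to Cct8, their relatives, and Tcp1). This gave 84 of 24421 genes: 3 Hsp90 genes, 14 of the Hsp70 and Hsp110 class, 2 of the mitochondrial chaperonin, 10 of the CCT class, 4 Dnaja, 13 Dnajb and 28 Dnajc genes, and 7 small heat shock proteins. The remaining 3 (Hspbp1, Hspbap1 and Hspb11) match by symbol only and belong to none of these classes.

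The libraries came from R1 mouse embryonic stem cells (ESCs), a pluripotent line. The group Undiff was taken before retinoic acid (RA), an inducer of differentiation, and its labels describe 4 days of growth as embryoid bodies, which are floating cell aggregates. The study's methods describe Undiff instead as cells kept with leukaemia inhibitory factor (LIF), which holds ESCs undifferentiated, and give the embryoid body step without LIF to Day4 only. If so, the states differ in RA, aggregation and LIF, whose parts cannot be told apart here. The group Day4 had then spent 4 days with RA, at a dose given as 2 µM in the series text and as 2 mM in the treatment label. Polyadenylated RNA of each state was read by nanopore sequencing (Oxford Nanopore Technologies, ONT) with the Direct RNA kit, which reads the RNA strand itself (500 ng of input), and with the cDNA kit, which reads PCR copies (50 ng), with 2 replicates of each state on each platform. The cells carry no genetic change named in the labels, and both states are mixtures of cells of 1 line. The replicates are biological, from cultures handled apart according to the study's methods. The study describes RNA of the same duplicate samples as the input of both kits, so agreement between platforms is not replication in further cultures.

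Molecular chaperones bind proteins that are not yet folded, or have lost their fold, and keep them from clumping. Hsp70 proteins hold short stretches of unfolded chain in cycles driven by ATP. J-domain proteins bring them their clients and trigger the cycle, and nucleotide exchange factors, among them the Hsp110 proteins, end it. Hsp90 acts later, on nearly folded clients such as kinases and steroid receptors. Chaperonins enclose a protein in a chamber: CCT, a double ring of 8 different subunits, folds actin and tubulin in the cytosol, and the Hspd1 ring with its lid Hspe1 serves mitochondria. Small heat shock proteins hold unfolded proteins without ATP. Cytosolic members are classical targets of heat shock factors, while those of the endoplasmic reticulum (ER) are targets of the unfolded protein response, and pluripotent cells are known for high chaperone levels.

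Reads on genes ranged from 283461 to 907489 in the Direct RNA libraries and from 948657 to 2088592 in the cDNA libraries, and replicate 2 was the deeper library in every group. A count of 3 reads, taken as the smallest that can be told from none, equalled 1.44 CPM in the deepest library and 10.6 CPM in the least deep one, where CPM stands for the reads of a gene in each 1000000 reads on genes. As a check of the states, 8 of 8 pluripotency markers (Pou5f1, Nanog, Sox2 and others) were lower at Day4 on both platforms, and markers of the RA response were higher, 7 of 7 tested in Direct RNA and 8 of 8 in cDNA. Their summed level rose from between 8.61 and 83.3 CPM in the Undiff libraries to between 1123 and 4835 CPM in the Day4 libraries. Of 7 markers of mesenchyme, 4 (Col1a1, Col1a2, Col3a1 and Pdgfra) rose on both platforms, while Dcn, Lum and Thy1 did not pass, with Thy1 below 0. Their sum went from at most 14.3 CPM to between 227 and 2865 CPM, with Col1a2, Col3a1, Dcn and Lum at 0 in every Undiff library. Of 6 markers of visceral endoderm, Ttr rose on both platforms and Afp and Apoa1 in Direct RNA, while Apob, Cubn and Amn did not pass, with Amn below 0. They summed to between 8.61 and 15.4 CPM in Undiff and to between 136 and 205 CPM at Day4, with Afp and Ttr at 0 in every Undiff library. The part of these cell types in the results was not tested. In such bulk samples fewer cells of a type and less RNA per cell cannot be told apart.

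Promoter windows of RefSeq (GRCm38.p6, 250 bases before to 50 after an annotated start) were found for 69 of the 84 members. They were searched on both strands for the heat shock element (HSE) bound by heat shock factors, as a pair of inverted repeats (GAANNTTC or TTCNNGAA) and as a triple (GAANNTTCNNGAA or TTCNNGAANNTTC), and for the ER stress response element (ERSE, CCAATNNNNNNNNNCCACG) and its second form (ATTGGNCCACG). A triple contains a pair, so the counts overlap. The pair was found in 22 of 88 member windows, against 15.1% of all 32851 windows, and the triple in 6 of them, against 0.603%. Some members have more than 1 window, and the 6 belong to 4 members (Dnajb6, Hsph1, Hspd1 and Hspe1), of which the last 2 share the same stretch. The ERSE was found in 3 member windows (Hspa5, Hsp90b1 and Dnajc3), against 0.119%, and the second form in that of Dnajb11, against 0.0365%. A match is only a match of letters.

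The 20 members with a pair were Cct2, Cct5, Cct6a, Cct8l1, Dnaja1, Dnaja4, Dnajb4, Dnajb6, Dnajc10, Dnajc27, Dnajc5g, Hspa1a, Hspa1b, Hspb1, Hspb3, Hspb6, Hspb8, Hspd1, Hspe1 and Hsph1. They did not move one way between states. Of the 15 with 5 or more normalized reads on average in Direct RNA, 10 had a log2 fold change below 0 and 5 above. Of all 61 members at this mean count 40 were below 0 and 21 above. Hspb1 and Cct6a were called lower and Dnajb4 higher, where 7.67% of all genes were called lower and 9.54% higher. In cDNA 9 of 14 were below 0 and 5 above, beside 42 and 21 of all 63 members. There Hspb1 alone was called, and lower, as were 9.24% of all genes. Dnajc3, with an ERSE, gave 0.63 in Direct RNA and -0.31 in cDNA. Dnajb11, with the second form, gave -0.59 and 0.03.

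The windows below were chosen with these values known and belong to the mitochondrial chaperonin pair and to Hspb1, whose mean CPM was lower at Day4 on both platforms, and to the main ER chaperones, whose mean CPM was not. Capitals mark the HSE in the first pair and the ERSE in the others. The Hspe1 window is chr1:55087898-55088197 on the plus strand. Its HSE run of 18 bases starts at -89 from the annotated start and is also that of Hspd1, which is read from the opposite strand (window chr1:55087883-55088182, minus).
Hspe1: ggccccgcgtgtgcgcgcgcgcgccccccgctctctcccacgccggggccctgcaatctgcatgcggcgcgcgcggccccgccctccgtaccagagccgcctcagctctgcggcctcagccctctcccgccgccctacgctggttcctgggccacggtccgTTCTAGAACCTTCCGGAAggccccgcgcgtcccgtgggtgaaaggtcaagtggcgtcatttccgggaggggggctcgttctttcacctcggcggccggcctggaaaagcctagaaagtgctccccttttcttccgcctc
The Hspb1 window is chr5:135887669-135887968, plus strand, with HSE pairs at -117 and -97.
Hspb1: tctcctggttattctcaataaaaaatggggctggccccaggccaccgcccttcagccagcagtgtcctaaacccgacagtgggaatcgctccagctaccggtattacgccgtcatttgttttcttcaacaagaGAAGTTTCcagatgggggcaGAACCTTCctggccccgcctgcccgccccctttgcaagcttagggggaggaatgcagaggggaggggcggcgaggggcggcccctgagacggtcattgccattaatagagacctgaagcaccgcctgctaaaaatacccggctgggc
The Hspa5 window is chr2:34771840-34772139, plus strand, with an ERSE at -65.
Hspa5: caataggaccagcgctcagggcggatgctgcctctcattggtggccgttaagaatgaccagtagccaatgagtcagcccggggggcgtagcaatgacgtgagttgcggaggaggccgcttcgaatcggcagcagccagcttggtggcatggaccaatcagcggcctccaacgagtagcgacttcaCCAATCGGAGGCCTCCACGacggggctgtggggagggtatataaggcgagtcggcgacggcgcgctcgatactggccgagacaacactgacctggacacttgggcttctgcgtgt
The Hsp90b1 window is chr10:86705395-86705694, minus strand, with an ERSE at -212 and another in the reverse direction at -107.
Hsp90b1: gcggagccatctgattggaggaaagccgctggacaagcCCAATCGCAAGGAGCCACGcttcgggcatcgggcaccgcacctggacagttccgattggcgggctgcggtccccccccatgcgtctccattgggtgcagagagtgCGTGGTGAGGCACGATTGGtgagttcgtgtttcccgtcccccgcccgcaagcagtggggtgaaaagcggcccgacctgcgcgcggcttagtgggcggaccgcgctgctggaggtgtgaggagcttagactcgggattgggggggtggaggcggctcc

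Of the 84 members, 59 had a read in all 8 libraries, while 12 never passed 5 reads in any library and 2, Cct8l1 and Dnajb8, had none. The share of all reads on genes that fell on the members was 2.82% and 2.57% in the Direct RNA Undiff libraries and 1.85% and 1.79% at Day4. In cDNA it was 1.57% and 2.12% in Undiff and 1.46% and 1.74% at Day4. The states were thus apart in Direct RNA and overlapped in cDNA, where replicate 2 was the higher library in both states. That overlap depends on the denominator: on library sizes scaled by edgeR's trimmed mean of M values (TMM) the cDNA shares were 2.37% and 3.0% in Undiff and 1.89% and 1.98% at Day4, without overlap. With the 100 most abundant other genes left out of the denominator, the lower Undiff library and the higher Day4 library both came to 2.22%. The 95% Wilson interval of the least deep library, Direct RNA Day4 replicate 1, was 1.80% to 1.90%, and such intervals cover counting error only. With 2 against 2 libraries an exact permutation test cannot reach p = 0.05, so shares are given as a description.

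The CCT and Hsp90 classes held most of these reads. In Direct RNA the CCT share went from 0.915% ± 0.0708 (SD, n = 2) in Undiff to 0.574% ± 0.0188 at Day4, and in cDNA from 0.553% ± 0.0942 to 0.420% ± 0.0463. The Hsp90 share went from 0.860% ± 0.0388 to 0.640% ± 0.0580 in Direct RNA and was 0.583% ± 0.176 and 0.572% ± 0.0828 in cDNA. Relative to Undiff, the Day4 share in Direct RNA was 0.187 for small heat shock proteins, 0.585 for the mitochondrial chaperonin, 0.627 for CCT and 0.677 for the Hsp70 and Hsp110 class. In cDNA these ratios were closer to 1, at 0.721, 0.763, 0.761 and 0.915. There the log2 ratio turned its sign with the library left out for small heat shock proteins (-0.91 to 0.17), the Hsp70 and Hsp110 class (-0.73 to 0.41) and Hsp90 (-0.31 to 0.32), as well as for the Dnaja share (-0.26 to 0.06) and the share of all members (-0.40 to 0.02). The Dnajb share was nearly level, at 1.06 in Direct RNA and 1.10 in cDNA, and the sign of its log2 ratio also depended on the library left out (-0.06 to 0.23 and -0.10 to 0.42).

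**Figure D1:**
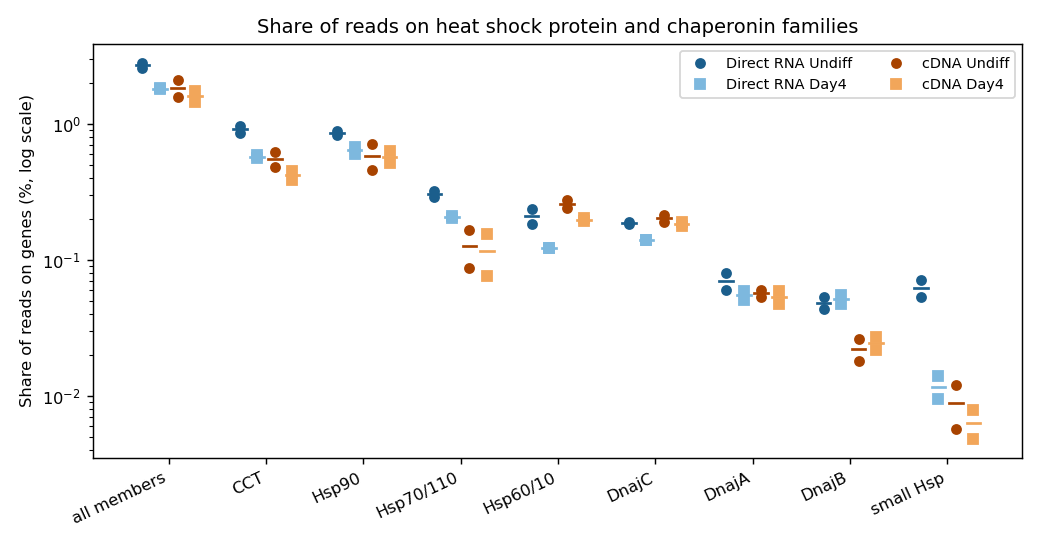
Share of reads on genes (percent, log scale) that fell on each class of members in each of the 8 libraries. Points are libraries and horizontal bars are the means of 2 replicates. For all members the Direct RNA Undiff libraries lie at 2.57% and 2.82%, above the Day4 libraries at 1.79% and 1.85%, and the cDNA states overlap.

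DESeq2 calls between states required an adjusted p-value no higher than 0.05, a fold no smaller than 1 on the log2 scale in either direction, and 5 or more normalized reads on average. In Direct RNA, 61 members reached that mean count, and 10 were lower (16.4%) and 2 higher (3.28%) at Day4, where 7.67% of all genes were lower and 9.54% higher. In cDNA, 63 members reached it, and 7 were lower (11.1%) and 3 higher (4.76%), against 9.24% and 8.69% of all genes. The share of lower members was thus above the background in Direct RNA and close to it in cDNA, and the share of higher members was below it on both. Unless edgeR is named, calls in the text are those of DESeq2. edgeR's quasi-likelihood test called more members. In Direct RNA 14 members fell and 5 rose by it, against a background of 15.1% and 18.7%, and in cDNA 11 fell and 7 rose, against 15.5% and 17.1%. It added Cct8, Dnaja3, Dnajb6 and Hspa8 (lower) and Dnajb2, Dnajb9 and Hspb11 (higher) in Direct RNA. In cDNA it added Cct6a, Dnajc2, Dnajc22 and Hspa9 (lower) and Dnajb3, Dnajb4, Dnajc1 and Hspb11 (higher). The median log2 fold change of the members was -0.47 in Direct RNA and -0.59 in cDNA, and that of all genes at this mean count 0.03 and 0.00. Scaling by reads on genes in place of DESeq2's size factors moved both medians alike, to -0.37 and 0.13 for Direct RNA and to -0.28 and 0.31 for cDNA.

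A total of 16 members were called on at least 1 platform, all with the same sign on the other, and 6 on both. Both kits are described as reading the same cultures, so this agreement is not independent. The same counts over all genes are not given here. The 6 were Hsp90aa1, Hspb1, Hspbap1, Dnajc21 and Dnajc6, all lower at Day4, and Hspa12b, which was higher. The calls of Dnajc6 in cDNA and of Hspa12b in Direct RNA depended on the settings. Both were lost without shrinkage, and that of Dnajc6 also with scaling by reads on genes. Neither gene had at least 10 reads in 2 libraries of the platform in question, so the fit with that filter left them out and could not test them. Hspbap1, Dnajc21 and Hsp90aa1 were called on both platforms whichever library was left out. In Direct RNA the same held for Hspb1 and Hspa4, while Hspa9 and Cct6a lost their call only without Undiff replicate 2 (adjusted p = 0.24 for both). The call of Dnajb4 in Direct RNA was kept only without Undiff replicate 1. The calls of Dnajc2, Dnajc6, Dnajc7 and Hspa12b in Direct RNA, and of Dnajb2, Dnajc18 and Dnajc6 in cDNA, were lost whichever library was left out. The sign of these folds held whichever library was left out. Groups of 2 libraries are often apart: every Day4 library was below every Undiff library in Direct RNA for 30.3% of all genes and 50.8% of members, and in cDNA for 23.2% and 41.3%. Every Day4 library was above for 37.3% and 24.6% in Direct RNA, and for 43.1% and 27% in cDNA.

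**Figure D2:**
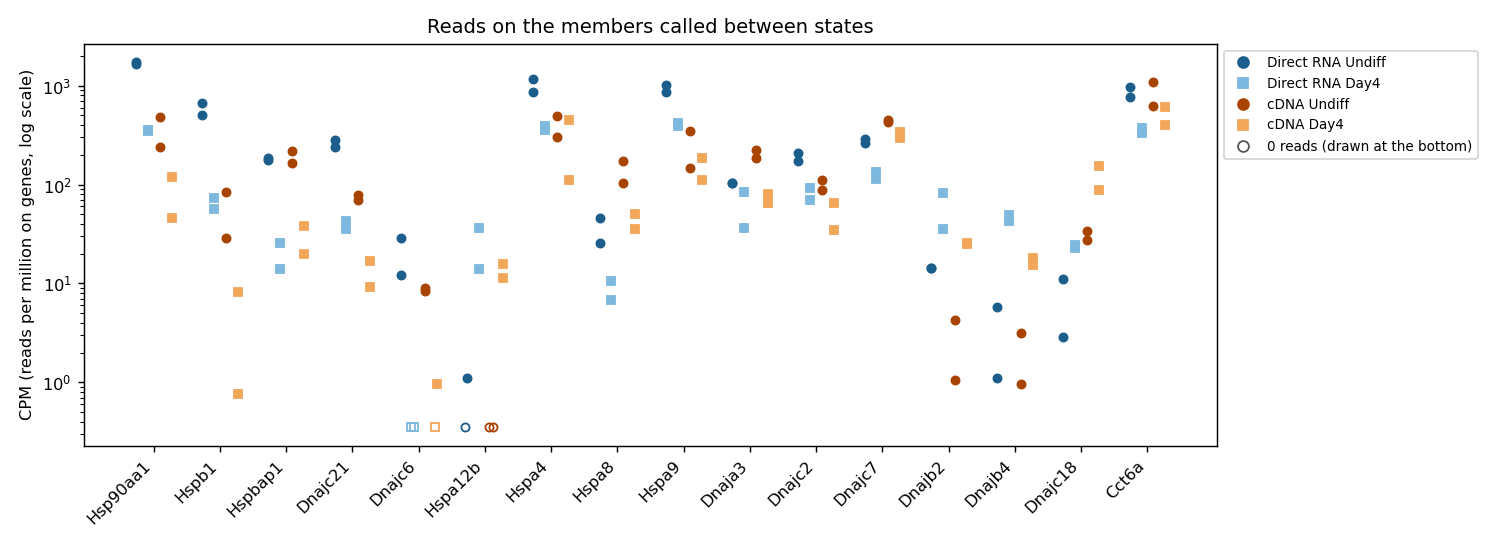
CPM (log scale) of the 16 members called between states on at least 1 platform, in each of the 8 libraries. Filled points are libraries, and open points at the bottom are libraries with 0 reads. Hsp90aa1, Hspb1, Hspbap1 and Dnajc21 lie lower in all Day4 libraries than in all Undiff libraries of the same platform.

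Of the 3 Hsp90 genes, the stress-inducible form was called lower on both platforms, and the others were not called. Hsp90aa1, which encodes the inducible cytosolic Hsp90 alpha, had 1722 and 1645 CPM in Direct RNA Undiff and 360 and 350 CPM at Day4. In cDNA it had 239 and 484 CPM in Undiff and 46.3 and 120 CPM at Day4. No Day4 library reached an Undiff library of its platform. The log2 fold change was -2.33 ± 0.26 (SE, n = 2 per state, adjusted p = 1.8e-16) in Direct RNA and -2.40 ± 0.48 (adjusted p = 2.5e-05) in cDNA.

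Hsp90ab1, the constitutive Hsp90 beta, was the most abundant member. It had 6649 and 6076 CPM in Direct RNA Undiff and 5821 and 5060 CPM at Day4, without overlap, and between 4089 and 6030 CPM in the cDNA libraries, where the states overlapped. Its log2 fold changes, -0.33 ± 0.23 and -0.34 ± 0.36, did not pass the test (adjusted p = 0.48 and 0.75). Per kilobase of the longest coding transcript, Direct RNA gave a mean level of 2525 RPKM for Hsp90ab1 in Undiff and 2159 RPKM at Day4, and of 513 and 108 RPKM for Hsp90aa1. Hsp90b1, the Hsp90 of the ER, had 502 and 603 CPM in Direct RNA Undiff and 631 and 583 CPM at Day4, with a log2 fold change of 0.02 ± 0.29 (adjusted p = 0.98), and 0.36 ± 0.45 in cDNA (adjusted p = 0.82).

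In the Hsp70 and Hsp110 class, a cytosolic and a mitochondrial member fell in Direct RNA, and no ER member did on either platform. Hspa4, a cytosolic Hsp110 protein that exchanges nucleotides on Hsp70, had 1154 and 858 CPM in Direct RNA Undiff and 392 and 355 CPM at Day4. The log2 fold change was -1.51 ± 0.29 (adjusted p = 5.4e-06). In cDNA its replicates lay far apart, at 301 and 498 CPM in Undiff and 111 and 449 CPM at Day4, and the states overlapped. The log2 fold change there was -0.86 ± 0.52 (adjusted p = 0.36), and it ranged from -1.96 to -0.18 with the library left out. Hspa9, the Hsp70 of mitochondria, had 867 and 1005 CPM in Direct RNA Undiff and 392 and 416 CPM at Day4 (log2 fold change -1.31 ± 0.28, adjusted p = 0.00012). In cDNA it had 145 and 350 CPM against 110 and 184 CPM, again overlapping (-1.05 ± 0.46, adjusted p = 0.14).

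Hspa8, the constitutive cytosolic Hsp70, was read at most 361 times in a library. It had 16 and 23 reads in Direct RNA Undiff and 3 and 5 at Day4, and 99 and 361 reads in cDNA Undiff and 47 and 105 at Day4. In cDNA this was 104 and 173 CPM against 35.7 and 50.5 CPM, with a log2 fold change of -1.97 ± 0.46 (adjusted p = 0.00045), a call that was lost without Undiff replicate 2 or without Day4 replicate 1 (adjusted p up to 0.15). In Direct RNA the log2 fold change of -1.93 ± 0.90 did not pass (adjusted p = 0.17). Beside these values stands that the Hspa8 transcript has 8 near copies among other annotated genes (at least 90% identity over at least 50% of its length), all pseudogenes. Hspa8 is 1 of 13 members with a near copy. The others are Cct3, Dnajc2, Dnajc8, Dnajc17, Hsp90aa1, Hsp90ab1, Hspa1a, Hspa1b, Hspa9, Hspb1, Hspd1 and Hspe1. Between 20.4% and 28.0% of the aligned reads of a library were set aside by the counter for low mapping quality. How many of these reads belong to Hspa8 or to the other members with a near copy was not tested.

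Hspa5 (BiP), the Hsp70 of the ER, had 611 and 527 CPM in Direct RNA Undiff and 794 and 936 CPM at Day4, and 148 and 324 CPM against 320 and 626 CPM in cDNA. It was higher at Day4 than in Undiff in every Direct RNA library and overlapped in cDNA. The log2 fold changes of 0.51 ± 0.28 and 0.65 ± 0.45 did not pass (adjusted p = 0.30 and 0.48). Hsph1, a further Hsp110 protein that is heat-inducible, had between 215 and 298 CPM in Direct RNA Undiff and between 164 and 183 CPM at Day4 (-0.65 ± 0.37, adjusted p = 0.33), and -0.65 ± 0.52 in cDNA (adjusted p = 0.59).

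The heat-inducible Hsp70 genes were barely read. Hspa1a had at most 9 reads in a library. Hspa1b had 15, 15, 8 and 10 reads in the Direct RNA libraries and 0 in all 4 cDNA libraries. The transcripts of Hspa1a and Hspa1b are near copies of each other, so reads could be given to either. Neither passed a test between states in Direct RNA (adjusted p = 0.98 for Hspa1a and 0.87 for Hspa1b), and Hspa1a did not in cDNA (adjusted p = 0.92).

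Hspa12b, a distant Hsp70 relative known from endothelial cells, was the Hsp70 gene that rose. It had 0 and 1 reads in Direct RNA Undiff and 4 and 27 at Day4, and 0 and 0 reads in cDNA Undiff against 15 and 33 at Day4. Over the groups this was a ratio of 38.1 (95% counting interval 6.35 to 1554) in Direct RNA. In cDNA it was at least 14.3-fold higher, set against a floor of 3 reads over the group. Its adjusted p was 0.031 in Direct RNA and 0.0047 in cDNA, and leaving out a library raised these to between 0.10 and 0.83 and between 0.035 and 0.28. The germ cell members Hspa2 and Hspa1l stayed at or under 38 reads, and the male germ cell markers summed to at most 16.9 CPM in any library, with Tnp1, Prm1 and Acrv1 at 0 throughout.

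**Figure D3:**
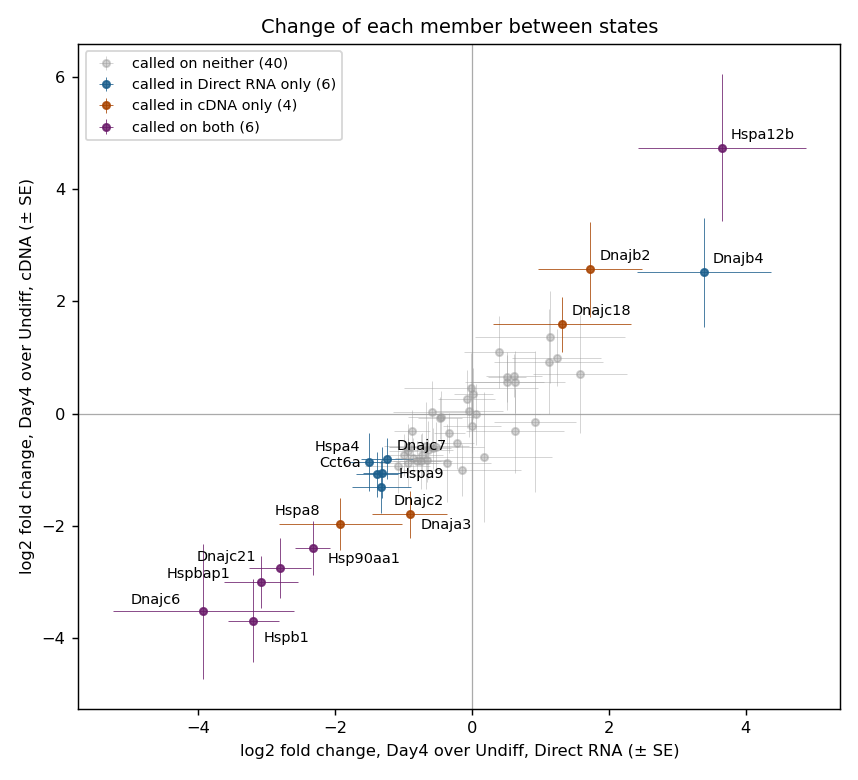
Log2 fold change of Day4 over Undiff in Direct RNA (x axis) and in cDNA (y axis), with standard errors, for the 56 members with 5 or more normalized reads on average on both platforms. The 6 members called on both platforms lie at the ends, with Hspa12b at the top right and Hspb1, Dnajc6, Hspbap1, Dnajc21 and Hsp90aa1 at the lower left, and 40 members were called on neither.

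The mitochondrial chaperonin genes, which stand head to head, were not called on either platform, and their log2 fold changes were below 0 on both. Hspd1 had 1455 and 1161 CPM in Direct RNA Undiff and 787 and 666 CPM at Day4, with a log2 fold change of -0.94 ± 0.27 (adjusted p = 0.0057). In cDNA its states overlapped, with 487 and 964 CPM against 497 and 696 CPM (-0.59 ± 0.41, adjusted p = 0.47). Hspe1 had 910 and 682 CPM in Direct RNA Undiff and 441 and 568 CPM at Day4, and 1931 and 1817 CPM against 1544 and 1231 CPM in cDNA. No Day4 library of Hspe1 reached an Undiff library of its platform, and the log2 fold change of -0.73 on both platforms (SE 0.30 and 0.38) did not pass (adjusted p = 0.093 and 0.24).

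The 8 subunits of the CCT ring had log2 fold changes below 0 on both platforms, with a range of -1.39 to -0.22 for Direct RNA and of -1.08 to -0.30 for cDNA, and with medians of -0.87 and -0.70. With scaling by reads on genes Cct7 in cDNA came to 0.00458, and the other signs did not change. Cct6a alone was called by DESeq2 as set here, in Direct RNA. It had 772 and 964 CPM in Direct RNA Undiff and 328 and 377 CPM at Day4 (log2 fold change -1.39 ± 0.30, adjusted p = 9.2e-05), and -1.08 ± 0.40 in cDNA (adjusted p = 0.056), with 617 and 1097 CPM against 398 and 605 CPM. The cDNA value is near the threshold: it passed with edgeR, with 4 other DESeq2 settings (the replicate block among them) and without Undiff replicate 1 (adjusted p up to 0.048), while without Day4 replicate 1 the adjusted p was 0.67.

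Just outside the call stood Cct8, at -1.0 ± 0.26 (adjusted p = 0.0026), whose fold before rounding was short of the threshold. It passed with edgeR, without shrinkage, with all 8 libraries in 1 fit and with the replicate block. It had 1134 and 1104 CPM in Direct RNA Undiff and 603 and 594 CPM at Day4. Cct2, Cct3 and Cct7 also had adjusted p-values under 0.05 in Direct RNA, with log2 fold changes of -0.87 ± 0.26, -0.93 ± 0.28 and -0.88 ± 0.26. The levels of Cct2 were 1421 and 1147 CPM against 751 and 750 CPM, those of Cct3 1263 and 1101 CPM against 564 and 747 CPM, and those of Cct7 1343 and 1104 CPM against 727 and 696 CPM. All of these Day4 libraries lay below the Undiff libraries, as in Direct RNA those of 30.3% of all genes did. Cct4 (-0.66 ± 0.28, adjusted p = 0.13) and Cct5 (-0.57 ± 0.26, adjusted p = 0.17) did not pass in Direct RNA, and in cDNA the other subunits did not pass either.

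Tcp1, the subunit that gave the ring its older name, differed from the others in the level at Day4 and between platforms. In Direct RNA it had 1119 and 1072 CPM in Undiff and 984 and 1039 CPM at Day4, with a log2 fold change of -0.22 ± 0.25 (adjusted p = 0.79). Its level per kilobase in both Day4 libraries was above that of 6 of the other 7 subunits, and in the Undiff libraries above that of 1 or 2 of them. In cDNA it had only 91.7 and 174 CPM in Undiff and 88.0 and 142 CPM at Day4. There it was under all the other subunits in every library, also per kilobase, with at most 71.3 RPKM in a library against at least 162 RPKM for any other subunit. Exons of Tcp1 overlap exons of Acat3 and Mrpl18 on the opposite strand, and the counting of cDNA reads was not stated to use strand. Exons of Cct6a, Cct7 and Cct8 also overlap genes on the opposite strand. Their log2 fold changes of cDNA over Direct RNA were 0.95, 0.32 and 0.23, without a call. The part of the Tcp1 overlap in its difference between platforms was not tested.

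**Figure D4:**
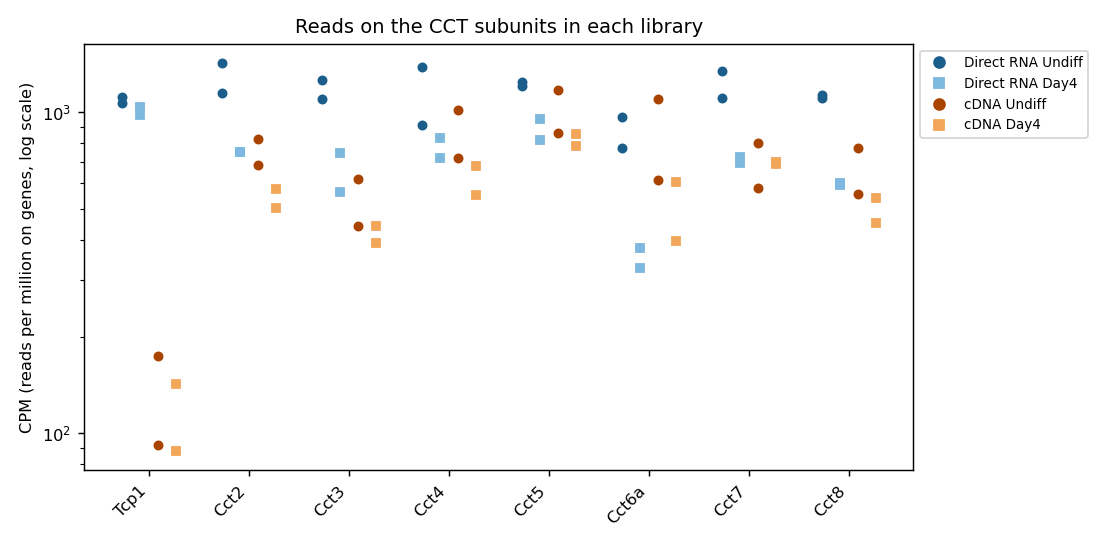
CPM (log scale) of the 8 subunits of the CCT ring in each of the 8 libraries. In Direct RNA the Undiff points lie above the Day4 points for every subunit, which is so for 30.3% of all genes, and Tcp1 lies between 88.0 and 174 CPM in cDNA, below all other subunits.

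Among J-domain proteins the Dnaja genes gave 1 call with DESeq2. Dnaja3, a mitochondrial J protein, had 226 and 184 CPM in cDNA Undiff and 65.2 and 80.9 CPM at Day4 (log2 fold change -1.79 ± 0.42, adjusted p = 0.00047). In Direct RNA it had 103 and 104 CPM against 84.7 and 36.6 CPM (-0.91 ± 0.55, adjusted p = 0.37). The call in cDNA was kept only without Undiff replicate 2, and the highest adjusted p was 0.068. The cytosolic partners of Hspa8 did not pass. Dnaja1 had between 123 and 164 CPM in all Direct RNA libraries and Dnaja2 between 315 and 534 CPM, with adjusted p-values of 0.95 and 0.47, and of 0.92 and 0.95 in cDNA.

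With DESeq2 the Dnajb genes gave 1 call on each platform, both higher at Day4, and edgeR added Dnajb6 (lower), Dnajb2 and Dnajb9 in Direct RNA and Dnajb3 and Dnajb4 in cDNA. Dnajb4, a cytosolic relative of Dnajb1, had 2 and 1 reads in Direct RNA Undiff and 12 and 36 at Day4, a ratio of 19.7 (95% counting interval 6.34 to 98.8, adjusted p = 0.008). The adjusted p was 0.036 without Undiff replicate 1 and between 0.14 and 0.56 without any of the other libraries. In cDNA it had 3 and 2 reads against 24 and 32 (log2 fold change 2.52 ± 0.97, adjusted p = 0.074). Dnajb2, which is known from neurons, had 1.05 and 4.31 CPM in cDNA Undiff and 25.03 and 25.5 CPM at Day4 (2.57 ± 0.85, adjusted p = 0.027), and 14.3 CPM in both Direct RNA Undiff libraries against 81.1 and 35.3 CPM (1.73 ± 0.76, adjusted p = 0.14). Beside it, the neuron markers summed to between 634 and 811 CPM in Undiff and between 35.3 and 56.9 CPM at Day4. Most of that sum was Stmn2 and Tubb3, while Dcx was at 0 in all Undiff libraries and at most 2.89 CPM at Day4. The part of neurons in the Dnajb2 result was not tested.

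The abundant Dnajb genes stayed without a call by DESeq2. Dnajb1, the heat-inducible Hsp40, had 181 and 105 CPM in Direct RNA Undiff and 159 and 142 CPM at Day4 (adjusted p = 1), and between 47.4 and 82.8 CPM in cDNA (adjusted p = 0.92). Dnajb6, a suppressor of protein aggregation, had 172 and 138 CPM in Direct RNA Undiff and 98.8 and 58.3 CPM at Day4, with log2 fold changes of -1.09 ± 0.47 (adjusted p = 0.13) and -0.94 ± 0.47 in cDNA (adjusted p = 0.22). With edgeR it was called in Direct RNA (-1.13, adjusted p = 0.013). Dnajb11, an ER partner of Hspa5, gave -0.59 ± 0.56 and 0.03 ± 0.56 (adjusted p = 0.69 and 0.99).

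The Dnajc genes, the most diverse class, were 23 of the 61 members tested in Direct RNA and 22 of the 63 in cDNA. They held 4 of the 10 lower calls in Direct RNA and 2 of the 7 in cDNA, close to their part of the members. Dnajc21, which acts in the maturation of the large ribosomal subunit, had 241 and 279 CPM in Direct RNA Undiff and 42.3 and 35.3 CPM at Day4, and 69.6 and 79.0 CPM against 9.10 and 16.8 CPM in cDNA. The states were far apart on both platforms, with log2 fold changes of -2.81 ± 0.45 (adjusted p = 4e-08) and -2.75 ± 0.54 (adjusted p = 1.5e-05). Dnajc2, a J protein of the ribosome, had 209 and 174 CPM in Direct RNA Undiff and 91.7 and 70.5 CPM at Day4 (-1.33 ± 0.43, adjusted p = 0.023), and -1.30 ± 0.47 in cDNA (adjusted p = 0.053). Hspa14, its Hsp70 partner there, gave -0.93 ± 0.43 and -0.87 ± 0.43 without a call (adjusted p = 0.16 and 0.21).

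Dnajc6 (auxilin), which uncoats clathrin vesicles with Hspa8, had 10 and 11 reads in Direct RNA Undiff and none at Day4, and 8 and 19 reads against 0 and 2 in cDNA. In Direct RNA its level fell at least 5.69-fold, set against 3 reads over the group, and the cDNA ratio of Undiff to Day4 was 15.1 (95% counting interval 3.79 to 131). The adjusted p-values were 0.03 and 0.033. Dnajc7, a cochaperone that binds Hsp70 and Hsp90, had 264 and 290 CPM in Direct RNA Undiff and 113 and 134 CPM at Day4 (-1.24 ± 0.38, adjusted p = 0.014), and -0.80 ± 0.37 in cDNA (adjusted p = 0.17).

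Dnajc18 was called higher in cDNA, the 1 Dnajc gene that rose by DESeq2, and edgeR added Dnajc1 (1.5, adjusted p = 0.039). It had 27.4 and 34.0 CPM in cDNA Undiff and 87.2 and 155 CPM at Day4 (1.59 ± 0.49, adjusted p = 0.014), and 1.32 ± 1.01 in Direct RNA (adjusted p = 0.56). Of the abundant members without a call, Dnajc8, known from splicing complexes, gave -0.80 ± 0.35 and -0.84 ± 0.36 (adjusted p = 0.14 and 0.13). Dnajc9, a histone chaperone, gave 0.61 ± 0.41 and 0.68 ± 0.39 (adjusted p = 0.46 and 0.34), with 109 and 123 CPM in Direct RNA Undiff and 183 and 202 CPM at Day4.

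Of the small heat shock proteins Hspb1 had the most reads in Undiff. It had 505 and 669 CPM in Direct RNA Undiff and 56.4 and 73.2 CPM at Day4, and 28.5 and 83.8 CPM in cDNA Undiff against 0.759 and 8.18 CPM. The log2 fold change was -3.20 ± 0.37 (adjusted p = 3.6e-15) in Direct RNA and -3.69 ± 0.74 (adjusted p = 2.7e-05) in cDNA. The states did not overlap, but the cDNA replicates differed widely, and the cDNA call was lost without either Undiff replicate (adjusted p up to 0.19). Hspbap1, whose protein binds that of Hspb1, also fell, from 178 and 187 CPM to 14.1 and 25.8 CPM in Direct RNA and from 165 and 220 CPM to 19.7 and 38.0 CPM in cDNA. Its log2 fold changes were -3.09 ± 0.54 (adjusted p = 6.4e-07) and -3.0 ± 0.46 (adjusted p = 4.6e-09).

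Hspb8 had between 20.03 and 62.6 CPM in all libraries, with more reads than Hspb1 in cDNA at Day4, and gave 0.63 ± 0.73 and 0.56 ± 0.55 (adjusted p = 0.78 and 0.71), and Hspb6 had at most 14 reads. Hspb2, Hspb3, Hspb7 and Hspb9, of which the first 3 are known from muscle, had at most 5 reads in a library. Muscle and heart markers summed to between 40.8 and 48.8 CPM in Direct RNA Undiff and between 106 and 176 CPM at Day4, and to between 80.9 and 130 CPM in the cDNA libraries, where the states overlapped.

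The members of the ER and of mitochondria were set side by side by textbook location, a grouping made with their values known and given without a test. Of 8 members that act in the ER lumen (Hspa5, Hspa13, Hsp90b1, Dnajb9, Dnajb11, Dnajc1, Dnajc3 and Dnajc10), 7 had a log2 fold change above 0 on each platform, with medians of 0.57 and 0.68. DESeq2 as set here called none. Dnajb9 was called higher in Direct RNA by edgeR, and by DESeq2 on genes with at least 10 reads in 2 libraries, and Dnajc1 in cDNA by edgeR. With scaling by reads on genes Dnajc3 in cDNA went from -0.31 to 0.01. Of 3 J proteins of the ER membrane whose J domain faces the cytosol, Dnajb12 (-0.37 and -0.88) and Dnajb14 (-0.57, with under 5 reads on average, and -0.82) were below 0 and Dnajc18 above it. With them, 8 of the 10 tested in Direct RNA and 8 of 11 in cDNA were above 0. Dnajb9, which binds Hspa5, had 17.2 and 19.8 CPM in Direct RNA Undiff and 74.1 and 56.9 CPM at Day4 (1.58 ± 0.69, adjusted p = 0.13), the highest of them. Dnajc14, Dnajc16 and Dnajc25, also placed in the ER, were left out of these lists, so the tallies rest on the choice of members. They gave 0.92, -0.47 and 0.16 in Direct RNA. In cDNA they gave -0.14, -0.04 and 0.86, of which Dnajc16 and Dnajc25 had under 5 reads on average. Of 8 mitochondrial members (Hspd1, Hspe1, Hspa9, Dnaja3, Dnajc11, Dnajc15, Dnajc19 and Dnajc30), 7 had a value below 0 in Direct RNA, with a median of -0.74. In cDNA 6 of the 7 with at least 5 reads on average were below 0, with a median of -0.85. Dnajc30, with under 5 reads on average there, gave 0.61 ± 1.23. All genes had medians of 0.03 and 0.00.

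Partner genes outside the rule were counted for comparison. Of 22 cofactors of Hsp70 and Hsp90, 6 fell and 1 rose in Direct RNA, and in cDNA 4 fell and 2 rose, where of all genes 7.67% fell and 9.54% rose in Direct RNA and 9.24% and 8.69% in cDNA. Called on both platforms were Ppid (log2 fold changes -1.37 and -1.34, adjusted p = 0.00035 and 0.0038), Ahsa1 (-1.13 and -1.17, adjusted p = 0.0067 and 0.049) and Ptges3 (-1.04 and -1.68, adjusted p = 0.049 and 0.0052), all cochaperones of Hsp90. Bag2, which exchanges nucleotides on Hsp70, rose on both (3.39 and 3.0, adjusted p = 0.00064 and 3.5e-06), from 8.61 and 3.31 CPM to 70.6 and 77.3 CPM in Direct RNA. Of 10 prefoldin subunits and CCT cofactors only Pfdn6, a prefoldin subunit, was called, and lower on both platforms (-1.56 and -1.38, adjusted p = 0.014 and 0.0077).

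Of 7 mitochondrial partners, Clpb, a disaggregase, was lower in Direct RNA (-1.57, adjusted p = 0.028) and Trap1, the Hsp90 of mitochondria, in cDNA (-2.40, adjusted p = 0.0011). Of 16 ER partners and genes of the unfolded protein response, none was called in Direct RNA, and in cDNA Herpud1 was higher (1.59, adjusted p = 0.011) and Creld2 lower (-1.27, adjusted p = 0.036). Their median was -0.06 in Direct RNA and -0.04 in cDNA. Among the heat shock factors Hsf1, Hsf2 and Hsf4 and the binding protein Hsbp1, only Hsf2 was called, lower in cDNA (-1.57, adjusted p = 0.013), and in Direct RNA it gave -1.44 (adjusted p = 0.55).

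Whether the change between states depended on the platform was tested by an interaction over all 8 libraries. No member was called, against 2 of all 17267 genes (0.0116%), and no member had an unadjusted p under 0.05 with DESeq2 or with edgeR. With DESeq2 only 161 of the 17267 genes (0.932%) had such a p, and a count of 0 among 82 members is near that share. The lowest among the members was that of Dnaja3, with a difference in log2 fold change (cDNA minus Direct RNA) of -0.88 ± 0.65 (unadjusted p = 0.18). The difference was -0.12 ± 0.57 for Hsp90aa1, 0.02 ± 0.68 for Dnajc21 and -0.63 ± 0.82 for Hspb1. Errors of this size left room for differences of more than 1 on the log2 scale, so calls made on only 1 platform are not shown to differ between platforms.

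Between platforms, 25 of 61 members differed with state as a covariate: 14 were higher in cDNA (23.0%) and 11 lower (18%), against 24.7% and 26.6% of all genes. Both shares were close to the background or below it. This split rests on the scaling. When libraries were scaled by reads on genes the median of all genes moved to -0.72 and that of the members to -0.56. With this scaling 9 members were called higher and 22 lower in cDNA. The shares of all genes called with it are not given here, so these counts have no background. Of the 14 and 11 calls, 20 were shared.

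Highest in cDNA were Hspa8 (log2 fold change 2.88 ± 0.34, adjusted p = 1.7e-15), Dnajc18 (2.79 ± 0.37), Hspa2 (2.65 ± 0.68), Dnajc24, which acts in the synthesis of diphthamide (2.41 ± 0.31), and Dnajc19, a J protein of the mitochondrial import motor (2.22 ± 0.34). Hspe1 followed at 2.1 ± 0.21, and its ratio to its ring partner changed with it. In CPM, Hspe1 was 0.561 to 0.853 times Hspd1 in the Direct RNA libraries and 1.77 to 3.97 times in the cDNA libraries. Hspe1 and Hspd1 exons overlap on opposite strands.

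Lowest in cDNA were Hspa1b, Dnajc30 (-2.95 ± 0.49), Dnajc14 (-2.89 ± 0.51), Hspb1 (-2.72 ± 0.40) and Tcp1 (-2.34 ± 0.21, adjusted p = 4.4e-27). Hspa1b had 48 reads in Direct RNA and none in cDNA, where a floor of 3 reads over the platform makes it at least 45.2-fold lower (adjusted p = 3.6e-08). Dnajc30, a mitochondrial J protein encoded by a single exon, had between 20.1 and 54.2 CPM in Direct RNA and between 1.92 and 4.55 CPM in cDNA. Exons of Dnajc24 (Dcdc5) and Dnajc19 (Fxr1), higher in cDNA, overlap genes on the opposite strand. So do those of Dnajc30 (Bud23) and Dnajc14 (Ormdl2 and Tmem198b), lower in cDNA, and the part of these overlaps was not tested. Hsp90aa1 was also lower in cDNA, at -1.42 ± 0.27 (adjusted p = 7.1e-07), while Hsp90ab1 was not called (0.51 ± 0.13, and -0.23 with scaling by reads on genes). The calls named here and for the members highest in cDNA kept their sign and their side of the threshold when libraries were scaled by reads on genes and when any 1 library was left out. Dnajc14 lost its call with the Undiff libraries only, and Hspa2 with the Day4 libraries only.

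The median longest coding transcript was 2362 bases for members called higher in cDNA, 3281 bases for those called lower and 2872 bases for those not called. Across the 61 members the log2 fold change and this length had a Spearman coefficient of -0.35, and across 10397 genes of -0.33. These coefficients describe genes of the same 8 libraries, which are not independent, and the members did not stand apart from the rest. Of the 20 tested members with exons that overlap a gene on the opposite strand, 5 were higher and 5 lower in cDNA, and of the other 41, 9 and 6.

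**Figure D5:**
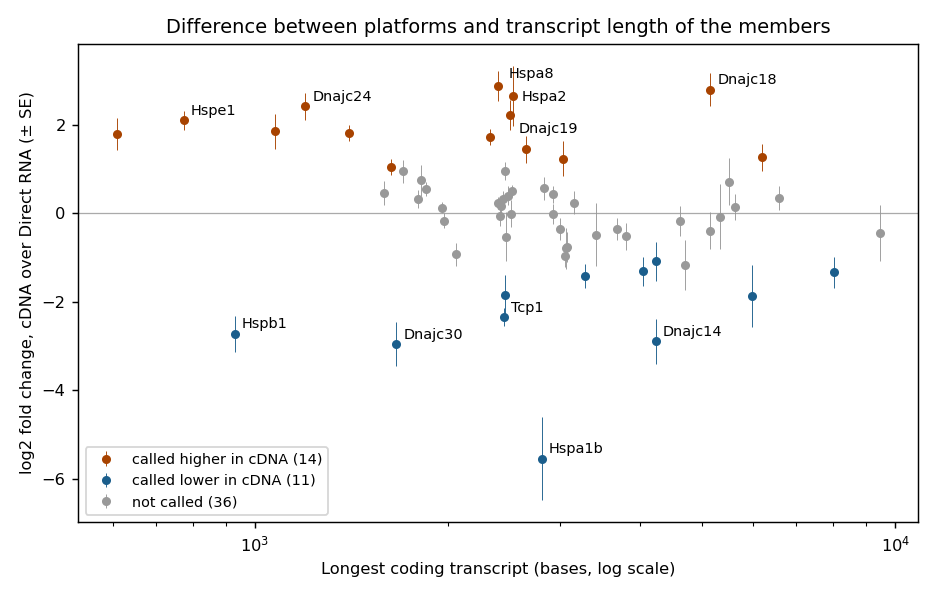
Log2 fold change of cDNA over Direct RNA with its standard error, against the length of the longest coding transcript (bases, log scale), for the 61 members with 5 or more normalized reads on average. Short Hspe1 and Dnajc24 lie above 2, but Hspb1, which is short as well, lies at -2.72 and Dnajc18, which is long, at 2.79.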

How the data were processed

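The authors deposited whole-number read counts per gene, made per the labels with minimap2 on mm10 and with HTSeq, and not normalized. Counting used the strand of Direct RNA reads, which was not stated for cDNA. The study names only Direct RNA as strand-specific, and its exon counts of cDNA ignored strand. Of the aligned reads, the counter set aside as ambiguous between genes 1.41% to 1.58% in Direct RNA and 4.38% to 5.05% in cDNA. The cause of that difference was not tested. The 5 counter rows that name no gene entered no test. Members, gene lists and tests were chosen with earlier results of these data known. State tests used DESeq2 1.42.0 in R 4.3.3 on the 4 libraries of a platform (Wald test, shrunken folds, Cook's cutoff and independent filtering off), fitted on all 24421 genes with Benjamini-Hochberg adjustment. The platform test adjusted for state over all 8 libraries, and the interaction was tested without shrinkage. edgeR 4.0.16 was the alternative, and both were tested on simulated data. Named were members called between states, a list of textbook members, the 5 highest and 5 lowest platform calls, and the 3 most abundant of each class. Other genes are named where called on both platforms, or after their values were seen. Coordinates and lengths are from GENCODE vM21 on GRCm38, near copies from blastn 2.17.0. Short reads and isoforms were not analysed here.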

Additional observations from a re-analysis of the deposited data

How the results depend on the processing

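With 2 libraries a group, calls near the threshold depend on single libraries and on the test. Between states, edgeR called 19 members in Direct RNA (12 with DESeq2) and 18 in cDNA (10), and both sets held all the DESeq2 calls. Leaving out 1 library at a time gave 5 to 8 members in Direct RNA, 4 to 7 in cDNA and 24 to 27 between platforms, and 0 for the interaction. Lone samples in these fits were assumed to vary like the other state. The remaining settings left these counts within 1.5 times of those reported. On TMM-scaled library sizes the log2 ratio of Day4 to Undiff for the share of all members in Direct RNA was -0.71, against -0.56 on reads on genes, and in cDNA -0.47 against -0.21. For the Hsp90 share in cDNA it was -0.29 against -0.03. The cause was not tested.

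Single folds were computed under every setting for the members named by the rule. Those that changed sign had no call in that comparison under any setting. In Direct RNA they were Dnaja1 (0.02 scaled by reads on genes, -0.27 to 0.10 without a library), Dnajb1 (0.02 with edgeR, 0.01 with TMM factors, 0.09 scaled by reads on genes, 0.05 with at least 10 reads in 2 libraries, -0.35 to 0.27 without a library), Hspa1a (-0.10 with edgeR, -0.50 to 0.56 without a library), Hspa1b (-0.99 to 0.04) and Hsp90b1 (-0.23 to 0.17). In cDNA they were Cct7 (0.00458), Dnaja2 (0.24) and Dnajb1 (0.08) scaled by reads on genes, Dnajb11 with all 8 libraries in 1 fit (-0.01), and without a library Dnaja1 (-0.27 to 0.96), Dnajb1 (-0.56 to 0.13), Dnajb11 (-0.33 to 0.40), Hsp90b1 (-0.11 to 0.90) and Hsph1 (-1.23 to 0.18). Over all members tested, scaling by reads on genes turned 4 signs in Direct RNA (Dnajc12 and Dnajc15 beside those above), 7 in cDNA (Dnajc3, Dnajc4, Dnajc14 and Hspbp1 beside those above) and 14 between platforms, and TMM factors turned 2, 1 and 3. None belonged to a call. The Dnajb share, above Undiff on reads on genes, gave log2 ratios of -0.07 in Direct RNA and -0.13 in cDNA on TMM-scaled library sizes.

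The groups share replicate numbers, which the labels do not tie to a shared batch. The study describes the same RNA as the input of both kits, so Direct RNA and cDNA libraries may share cultures. The main platform and interaction fits treated all libraries as separate. Differences between replicates correlated across 1395 genes at 0.214 between states in Direct RNA and at 0.5 in cDNA, and between platforms at 0.124 in Undiff and -0.416 at Day4. A replicate block gave 8 members between states in Direct RNA, 9 in cDNA, 25 between platforms and 0 for the interaction, and Dnajb1 in Direct RNA came to 0.02. In Direct RNA all 8 were lower: the block took away the calls of Dnajb4, Dnajc2, Dnajc6, Dnajc7 and Hspa12b and added Cct8. In cDNA it took away Dnajb2 and Dnajc6 and added Cct6a, and between platforms it took away Hspa13 and added Hspa9. Crossing the Day4 numbers, chosen after seeing the data like the scaling by reads on genes, gave 25 members between platforms and 0 for the interaction.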
